A study of Mus musculus with 4 samples.

Results

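Border-associated macrophages were taken as barcodes that held at least 5 UMIs of 7 marker genes summed (Mrc1, Pf4, Cbr2, Lyve1, F13a1, Cd163 and Ms4a7). They also held at most 2 UMIs of 4 microglia genes, at most 2 of 2 endothelial genes, and none of Hmga2 or of the genes Cd3d, Cd3e and Cd3g of the T cell receptor complex. A UMI is 1 counted RNA molecule. This left 749 members of 44503 kept barcodes, so the members were chosen by the measured levels of those genes, which are given as a description only. The cells came from the hemisphere opposite to the injection in C57BL/6 mice, whose sex and number per library were not given in the sources used here. In the old tumour group, mice aged 93 weeks had received 1000 cells of CT2A-GFP-luc, a line of mouse glioma that carries fluorescent and luciferase reporters, 2 weeks earlier. In the old sham group, mice of the same age had received saline (PBS) at that time. In the young tumour and young sham groups, mice aged 8 weeks had received the same cells or saline. Each group was 1 library, so there were no replicates and no difference between groups was tested. The intervals in parentheses are exact 95% intervals that cover counting error only.

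Border-associated macrophages live in the meninges, in the spaces around vessels and in the choroid plexus. They take up proteins, lipids and dying cells from fluid at these borders through scavenger and lectin receptors such as Mrc1 (CD206), Cd163 and Stab1. In mice they are commonly divided into Lyve1-positive cells with low MHC class II and MHC class II-high cells without Lyve1. Class II molecules carry peptides from engulfed proteins to the cell surface, where CD4 T cells read them. The class II-high kind is known to be replaced from blood monocytes more often than the Lyve1-positive kind.

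Class II genes set the kinds of member apart in the results below, so promoters of their chains are shown. The set is switched on by the transactivator CIITA through a shared element, of which the Y box bound by the factor NF-Y has the letters CTGATTGG (CCAATCAG on the other strand). RefSeq promoters (GRCm38.p6) run from 250 bases before to 50 bases after a gene start. The promoters of H2-Aa, which encodes the alpha chain of the I-A molecule, at chr17:34287774-34288073 on the minus strand, and of H2-Eb1, which encodes the beta chain of I-E, at chr17:34305617-34305916 on the plus strand, read 5′ to 3′ with the Y box in capitals:
H2-Aa: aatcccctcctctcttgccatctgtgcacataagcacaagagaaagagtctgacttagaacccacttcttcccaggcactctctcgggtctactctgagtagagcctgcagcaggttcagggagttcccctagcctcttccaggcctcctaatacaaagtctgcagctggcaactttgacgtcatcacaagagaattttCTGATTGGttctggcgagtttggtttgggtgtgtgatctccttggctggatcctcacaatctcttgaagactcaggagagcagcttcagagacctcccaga
H2-Eb1: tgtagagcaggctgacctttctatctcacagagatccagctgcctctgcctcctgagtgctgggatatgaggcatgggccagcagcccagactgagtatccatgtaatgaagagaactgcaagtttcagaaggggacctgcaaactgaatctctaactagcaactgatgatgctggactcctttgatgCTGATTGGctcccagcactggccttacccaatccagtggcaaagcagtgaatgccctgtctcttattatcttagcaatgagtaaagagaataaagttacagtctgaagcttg
The box began 51 bases before the start of H2-Aa and 62 bases before that of H2-Eb1. H2-Eb2 and H2-Oa also held it, at 103 and 46 bases before their starts. In all, 4 of 11 promoters of 10 genes of the class II list held the exact letters, on either strand, beside 4.10% of 32851 promoters. Those of H2-DMa, H2-DMb1, H2-DMb2, H2-Ob, Ifi30 and Ctss did not hold these letters. H2-Ab1 and Ciita were named only.

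The 4 libraries held 62726818 to 76652484 UMIs in 10665 to 12070 barcodes. Members had a median of 5177 UMIs in old tumour, 4068 in old sham, 7909 in young tumour and 4050 in young sham. At the threshold, 12 members in old tumour, 9 in old sham, 24 in young tumour and 9 in young sham held exactly 5 marker UMIs. Barcodes with 4 marker UMIs that met every other condition numbered 14 in old tumour, 8 in old sham, 25 in young tumour and 7 in young sham. Barcode sequences found in more than 1 library numbered 210, and none was a member in 2 libraries. Markers of the choroid plexus epithelium, 8 genes led by the transthyretin gene Ttr, summed to 49188 CPM in old tumour, 3133 in old sham, 4778 in young tumour and 482 in young sham members. In old tumour, 4 members with 100 or more Ttr UMIs held 18.0% of all member UMIs.

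Members differed in the number of marker genes they held. In old tumour 86 members, in old sham 77, in young tumour 148 and in young sham 66 had UMIs of 3 or more of the 7 marker genes. The other 36 in old tumour, 32 in old sham, 267 in young tumour and 37 in young sham had 1 or 2. The 7 markers summed to 5966 CPM in old tumour, 9653 in old sham, 5943 in young tumour and 9060.1 in young sham in cells with 3 or more, and to 732 CPM in old tumour, 1303 in old sham, 1912 in young tumour and 1147 in young sham in cells with 1 or 2. Some genes outside the gate split in the same way. Folr2, a folate receptor of resident macrophages, stood at 286 CPM in old tumour, 412 in old sham, 239 in young tumour and 380.3 in young sham cells with 3 or more marker genes. In cells with 1 or 2 it had 1 UMIs in old tumour, 1 in old sham, 3 in young tumour and 0 in young sham. Of 20 genes that mark Lyve1+ macrophages 19 could be compared, and 17 were lower by 2-fold or more in cells with 1 or 2 marker genes in all 4 libraries, where 3.61% of the 5648 genes compared were. Lyve1 was itself 1 of the 7 genes counted, so this list was not independent of the cut. Of 19 compared genes of class II-high macrophages, 5 were higher in all 4 libraries in cells with 1 or 2, and 1 was lower. The 5 were Ccr2, Clec4b1, Cd52, Fxyd5 and Plbd1, and 1.45% of all genes compared were higher. As a description, the cells with 3 or more marker genes carried more of the Lyve1+ profile. Those with 1 or 2 are called few-marker cells below.

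Few-marker cells held genes of other myeloid cells. The 8 monocyte markers summed to 2608 CPM in old tumour, 4321 in old sham, 1272 in young tumour and 7204 in young sham few-marker cells, and to 241 CPM in old tumour, 19.2 in old sham, 268 in young tumour and 101 in young sham cells with 3 or more marker genes. Ly6c2, a surface antigen of classical monocytes, stood at 847 CPM in old tumour, 814 in old sham, 212 in young tumour and 2086 in young sham few-marker cells. Of 19 genes compared from a list of monocyte-derived macrophages, 9 were higher by 2-fold or more in few-marker cells in all 4 libraries, among them Ccr2, Ly6c2, Plac8, Chil3 and Fn1, and none was lower, while 1.45% of all genes were higher. In old tumour, old sham and young sham, F13a1, a coagulation factor subunit that monocytes also make, was the leading marker of 13 of 36, 15 of 32 and 26 of 37 few-marker cells. Neutrophil and precursor genes stood beside it. The 8 neutrophil markers summed to 5219.9 CPM in old tumour, 3549.7 in old sham, 291 in young tumour and 6555 in young sham few-marker cells, and the granule enzyme gene Mpo stood at 318 CPM in old tumour, 4.79 in old sham, 8.98 in young tumour and 926 in young sham. The gate itself set 3 of the 9 T cell markers to 0. The other 6 (Trac, Trbc1, Trbc2, Cd8a, Cd4 and Lck) were at 0 in old tumour, old sham and young sham few-marker cells, and the 9 summed to 5.07 CPM in young tumour. NK cell markers summed to 0 CPM in old tumour, 0 in old sham, 8.59 in young tumour and 2.64 in young sham.

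Young tumour few-marker cells differed from those of the other libraries in several levels. Ms4a7, a membrane protein of border and monocyte-derived macrophages, led 251 of those 267 cells, and 258 (96.6%) held at least 5 UMIs of the class II genes H2-Aa, H2-Ab1 and H2-Eb1 and no Lyve1, against 44.4% in old tumour, 46.9% in old sham and 24.3% in young sham. In old tumour, Ms4a7 led 13 of 36. The class II chaperone Cd74 stood at 6786 CPM in old tumour, 9935 in old sham, 24810.1 in young tumour and 2617 in young sham few-marker cells. Cd72, a lectin-like receptor, stood at 74.7 CPM in old tumour, 57.5 in old sham, 1282 in young tumour and 15.8 in young sham. Fcgr4, an activating receptor for IgG, stood at 40.5 CPM in old tumour, 4.79 in old sham, 737 in young tumour and 5.28 in young sham. Cxcl9, a chemokine induced by interferon gamma that draws T cells, stood at 386 CPM in old tumour, 0 in old sham, 1468 in young tumour and 0 in young sham. All 4 genes were higher in young tumour few-marker cells than in those of the other libraries, while Folr2, Cd209f and Ccl24 had 3, 2 and 2 UMIs in them. In young tumour alone, few-marker cells also held B cell markers, which summed to 1712 CPM against 153 to 211 in the other libraries. Astrocytes of young tumour (5 or more UMIs of Aqp4 and Aldoc, none of the marker or microglia genes) held 856 CPM of these markers too. Because this group outnumbered the others, the comparisons below were made chiefly in cells with 3 or more marker genes.

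**Figure D1:**
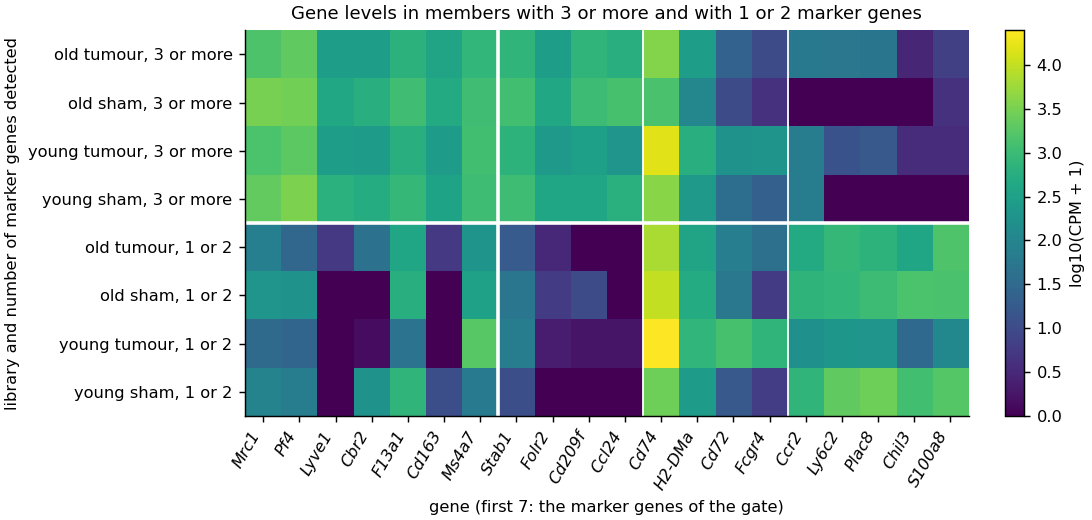
Levels of 20 genes as log10(CPM + 1), by library and by the number of marker genes detected (upper 4 lines: 3 or more, lower 4 lines: 1 or 2). The first 7 genes are those of the gate and are shown as a description. The block from Stab1 to Ccl24 is higher in the upper lines, and the block from Ccr2 to S100a8 is higher in the lower lines, least so in young tumour.

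Members were a larger share of kept barcodes in the young tumour library than in the other 3. They were 122 of 10809 (1.13%, 0.938 to 1.35%) in old tumour, 109 of 10418 (1.05%, 0.860 to 1.26%) in old sham, 415 of 11575 (3.59%, 3.25 to 3.94%) in young tumour and 103 of 11701 (0.880%, 0.719 to 1.07%) in young sham. The young tumour share was 4.07 (3.28 to 5.10) times the young sham share, whereas the old tumour share was 1.08 (0.826 to 1.41) times the old sham share. Old tumour stood at 0.315 (0.255 to 0.386) times young tumour, and old sham at 1.19 (0.900 to 1.57) times young sham. The 3 other libraries had overlapping intervals. A library's share of 1 cell type moves with every other cell type in it, and cells with Hmga2 at 3 or more UMIs, a tumour-like gene, numbered 2 in old tumour, 0 in old sham, 510 in young tumour and 0 in young sham.

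Most of the difference in the young lay in few-marker cells. Cells with 3 or more marker genes were 0.796% in old tumour, 0.739% in old sham, 1.28% in young tumour and 0.564% in young sham, with ratios of 1.08 (0.782 to 1.48) for old tumour over old sham and 2.27 (1.68 to 3.08) for young tumour over young sham. Few-marker cells were 0.333% in old tumour, 0.307% in old sham, 2.31% in young tumour and 0.316% in young sham, with ratios of 1.08 (0.655 to 1.80) and 7.29 (5.16 to 10.6). Old tumour over young tumour was 0.622 (0.471 to 0.817) for cells with 3 or more marker genes and 0.144 (0.0990 to 0.205) for few-marker cells. A microglia gate took 5 or more UMIs of the 4 microglia genes and at most 1 marker UMI. A monocyte gate took 3 or more UMIs of Ccr2, Ly6c2 and Plac8 and 1 or more of Lyz2. It allowed at most 1 marker UMI and 2 microglia UMIs. Its cells held neutrophil markers at 248503 CPM in old tumour, 144992 in old sham, 11616 in young tumour and 220954 in young sham. The part of these markers in the shares that follow was not tested. Among the barcodes of the macrophage, microglia and monocyte gates alone, cells with 3 or more marker genes were 3.16% in old tumour, 2.81% in old sham, 4.13% in young tumour and 1.57% in young sham. On that base young tumour was also the highest and young sham the lowest, and the ratio was 1.13 (0.818 to 1.55) for old tumour over old sham and 2.62 (1.95 to 3.56) for young tumour over young sham. Old tumour over young tumour was then 0.765 (0.580 to 1.00), with an interval that held 1, and old sham over young sham 1.78 (1.27 to 2.52). The order of these shares among old tumour and old sham was within counting error on either base. Fibroblasts, which share the meninges with these macrophages, were 1.89% in old tumour, 1.48% in old sham, 1.31% in young tumour and 1.68% in young sham of kept barcodes, and choroid plexus epithelial cells 10.1% in old tumour, 5.80% in old sham, 2.80% in young tumour and 5.18% in young sham. Both were lower in young tumour than in young sham and higher in old tumour than in old sham, and the part of dissection in the macrophage shares was not tested.

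**Figure D2:**
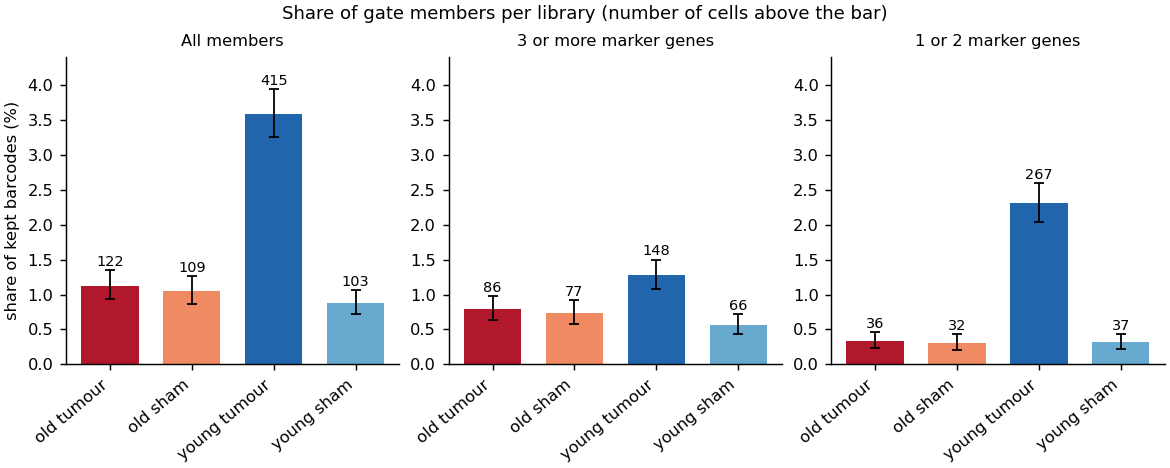
Share of kept barcodes (%) in each library for all members, for members with 3 or more marker genes and for those with 1 or 2, with exact 95% intervals for counting error and the number of cells above each bar. Young tumour stands above the other libraries in each panel, and the gap is widest for cells with 1 or 2 marker genes (267 cells against 32 to 37).

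Set against microglia of the same library, cells with 3 or more marker genes carried the uptake and interferon genes known of border macrophages. Of 6186 genes compared, 3.43% were higher and 4.72% lower by 2-fold or more in all 4 libraries. Since both gates were built from levels, these counts are a description. Scavenger and lectin receptors were higher for 14 of 21 genes compared and lower for 1 (Lrp1). Stab1, a scavenger receptor for modified proteins, stood at 740.1 CPM in old tumour, 1176 in old sham, 687 in young tumour and 1065 in young sham, which was 7.30 times the microglia level in old tumour, 13.5 in old sham, 5.34 in young tumour and 8.18 in young sham. Cd209f, a lectin, stood at 756 CPM in old tumour, 1032 in old sham, 298 in young tumour and 376 in young sham, while microglia held 1 to 5 UMIs of it in all. Clec4n (Dectin-2), a receptor for fungal mannans, and Timd4, a receptor for dying cells, were also among the 10 genes with the highest ratios. Apoe, the main lipid carrier of the brain, was 7.92 times the microglia level in old tumour, 15.2 in old sham, 11.1 in young tumour and 28.8 in young sham. Of 19 lipid handling genes 6 were higher.

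Type I interferon genes were higher than in microglia for 13 of 26 compared and lower for none. Ifitm3, which blocks virus entry, was 8.59 times the microglia level in old tumour, 6.99 in old sham, 7.41 in young tumour and 26.2 in young sham. Among chemokines 6 of 16 were higher (Ccl2, Ccl7, Ccl8, Ccl12, Ccl24 and Cxcl2) and none lower. Ccl2, which draws monocytes, was 24 times the microglia level in old tumour, 26.5 in old sham, 4.43 in young tumour and 48.3 in young sham, with the smallest ratio in young tumour. Complement gene C4b was 25.4 times the microglia level in old tumour, 27.0 in old sham, 6.08 in young tumour and 71.5 in young sham. Microglia genes outside the gate were lower in these cells. The microglia regulator Sall1 stood at 1 to 3 UMIs in each library, and Slc2a5, a fructose transporter, at 0 or 1. Of 19 lysosomal protease genes compared 6 were lower, among them Ctsd, Ctsl and Cst3, and 1 was higher (Ctsc). The protease inhibitor Cst3, abundant in microglia, was 0.153 times the microglia level in old tumour, 0.159 in old sham, 0.136 in young tumour and 0.154 in young sham.

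Cells with 3 or more marker genes were split by UMI cuts on class II genes and Lyve1, and both classes held cells in every library. Class II-high cells (5 or more UMIs of H2-Aa, H2-Ab1 and H2-Eb1, and no Lyve1) were 19 of 86 (22.1%, 13.9 to 32.3%) in old tumour, 7 of 77 (9.09%, 3.73 to 17.8%) in old sham, 67 of 148 (45.3%, 37.1 to 53.7%) in young tumour and 12 of 66 (18.2%, 9.76 to 29.6%) in young sham. Lyve1+ cells (1 or more Lyve1 UMI and under 5 of class II) were 24 of 86 (27.9%, 18.8 to 38.6%) in old tumour, 37 of 77 (48.1%, 36.5 to 59.7%) in old sham, 34 of 148 (23%, 16.5 to 30.6%) in young tumour and 33 of 66 (50%, 37.4 to 62.6%) in young sham. Class II-high cells outnumbered Lyve1+ cells in young tumour, and Lyve1+ cells outnumbered them in old sham and young sham. In old tumour the 2 intervals overlapped, and after thinning each cell to 1500 UMIs both classes were 20 of 81 cells. Cells with neither were 32 of 86 (37.2%) in old tumour and 33 of 77 (42.9%) in old sham. They were 32 of 148 (21.6%) in young tumour and 21 of 66 (31.8%) in young sham. Cells with both were 11 in old tumour, 0 in old sham, 15 in young tumour and 0 in young sham. By the exact interval a count of 0 allows up to 4.68% of old sham and 5.44% of young sham cells. After thinning each cell to 1500 UMIs, cells with both were 4 of 81 in old tumour and 7 of 133 in young tumour, against 0 of 62 in old sham and 0 of 54 in young sham. A count of 0 then allows up to 5.78% of old sham and 6.60% of young sham cells. These limits lie above the tumour shares (4.94% and 5.26%), so no difference was detectable at that depth.

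The tumour libraries lay on the same side of sham at both ages. The class II-high share was 2.43 (0.978 to 6.84) times sham in the old and 2.49 (1.34 to 5.06) times in the young. The Lyve1+ share was 0.581 (0.332 to 0.997) times sham in the old and 0.459 (0.276 to 0.765) times in the young. Old tumour over young tumour was 0.488 (0.277 to 0.822) for class II-high cells, and old sham over young sham was 0.500 (0.167 to 1.38). The interval held 1 in the old tumour ratio of class II-high cells and in the old over young sham ratio, so neither difference was detectable at this depth. After thinning each cell to 1500 UMIs the class II-high shares were 24.7% in old tumour, 9.68% in old sham, 47.4% in young tumour and 20.4% in young sham. The Lyve1+ shares were then 24.7% in old tumour, 33.9% in old sham, 17.3% in young tumour and 37.0% in young sham. The tumour to sham ratio of thinned Lyve1+ cells was 0.729 (0.375 to 1.41) in the old. The cells deep enough for thinning numbered 81 in old tumour, 62 in old sham, 133 in young tumour and 54 in young sham.

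Free RNA can place UMIs in cells that do not make them. For the shares below, astrocytes were barcodes with 5 or more UMIs of Aqp4 and Aldoc and no other condition. Doublets with macrophages or microglia were thus not excluded, unlike in the astrocyte CPM values. Among these astrocytes, 0.270% in old tumour, 0.213% in old sham, 0.200% in young tumour and 0.0732% in young sham held a Lyve1 UMI. Their median depths were 3767.5 to 4463.5 UMIs, against medians of 2949 to 4388.5 in cells with 3 or more marker genes. Class II UMIs at 5 or more were found in 0.856% of astrocytes in old tumour, 0.640% in old sham, 4.55% in young tumour and 0.512% in young sham. Both were lower than the macrophage shares in every library, and the class II value was highest in young tumour. The part of free RNA in these values was not tested. Over all members, few-marker cells included, class II-high cells were 28.7% in old tumour, 20.2% in old sham, 78.3% in young tumour and 20.4% in young sham. Lyve1+ cells were 19.7% in old tumour, 33.9% in old sham, 8.19% in young tumour and 32.0% in young sham.

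**Figure D3:**
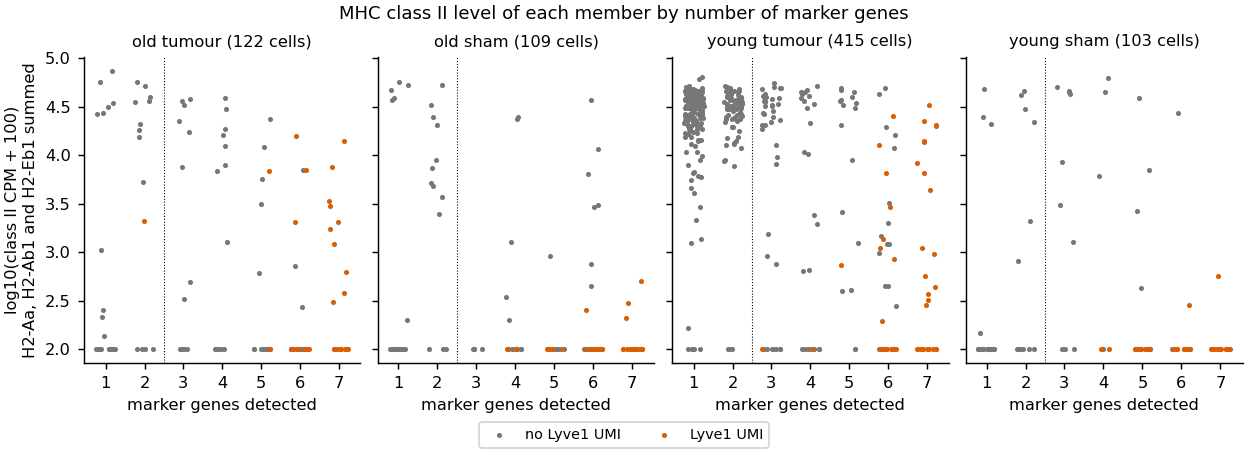
Each point is 1 member: the number of marker genes detected (x axis, spread sideways for view) against its class II level as log10(CPM + 100), summed over H2-Aa, H2-Ab1 and H2-Eb1, in 4 panels by library. Points at 2.0 had no class II UMI. Young tumour has a dense group of 267 cells with 1 or 2 marker genes, nearly all at high class II, and Lyve1+ cells lie at 5 to 7 marker genes in each panel for the most part.

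Beyond the class II genes that set the split, class II-high and Lyve1+ cells differed in a short list of genes. Of 1668 genes compared, 0.420% were higher and 0.779% lower by 2-fold or more in class II-high cells in all 4 libraries. Further genes of the same pathway were among the higher ones. Cd74 was 409 times the Lyve1+ level in old tumour, 102 in old sham, 42.8 in young tumour and 285 in young sham. H2-DMa and H2-DMb1 encode the chains of the molecule that loads peptides onto class II. H2-DMa was 9.14 times the Lyve1+ level in old tumour, 5.54 in old sham, 11.9 in young tumour and 77.6 in young sham. H2-DMb1 was 8.79 times the Lyve1+ level in old tumour, 13.5 in old sham, 7.11 in young tumour and 14.8 in young sham. In Lyve1+ cells of young sham H2-DMa had 2 UMIs, so that ratio spans 20.4 to 658. The cytokine gene Il1b was 6.16 times the Lyve1+ level in old tumour, 3.05 in old sham, 3.14 in young tumour and 3.6 in young sham. Cd52, a leukocyte surface glycoprotein, was 5.33 times the Lyve1+ level in old tumour, 5.45 in old sham, 9.57 in young tumour and 3.63 in young sham. Fxyd5, an ion pump modulator, was 11.4 times the Lyve1+ level in old tumour, 6.85 in old sham, 17.6 in young tumour and 3.98 in young sham.

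Ccl24 and lectins of the Cd209 family were lower in class II-high cells. Of 19 scavenger and lectin receptors compared 5 were lower in all 4 libraries (Clec4n, Cd209a, Cd209b, Cd209f and Cd209g) and none was higher, and of 6 receptors for dying cells none was past 2-fold in all 4. Ccl24 (eotaxin-2), a chemokine for eosinophils, stood in class II-high cells at 0.144 times the Lyve1+ level in old tumour, 0.0845 in old sham, 0.0512 in young tumour and 0.0491 in young sham, on 2 to 12 UMIs in the class II-high cells. The lectin Cd209f had 0 UMIs in class II-high cells of old tumour against 219 in Lyve1+ cells, and its ratio was 0.194 in old sham, 0.0375 in young tumour and 0.165 in young sham. Ltc4s, which makes leukotriene C4, was at 0.451 times the Lyve1+ level in old tumour, 0.189 in old sham, 0.130 in young tumour and 0.0774 in young sham. Cd38, which degrades NAD, was at 0.428 in old tumour, 0.323 in old sham, 0.384 in young tumour and 0.127 in young sham. The iron exporter Slc40a1 had 2, 2, 0 and 2 UMIs in class II-high cells and 37, 46, 34 and 25 in Lyve1+ cells, in the order old tumour, old sham, young tumour and young sham. Of 15 genes compared from the Lyve1+ list 7 were lower and none was higher, and of 15 from the class II-high list 6 were higher and none was lower. In old sham the class II-high class was 7 cells with 20809 UMIs, which limits its ratios. Monocyte markers summed to 161 CPM in old tumour, 48.1 in old sham, 431 in young tumour and 511 in young sham class II-high cells. In Lyve1+ cells they summed to 39.2, 16.8, 15.2 and 15.3 CPM, in the same order. In old tumour, 2 of the 24 Lyve1+ cells held 100 or more Ttr UMIs and 41.3% of the UMIs of that class. Choroid plexus markers summed to 91075 CPM in Lyve1+ cells and 54468 CPM in class II-high cells of old tumour, and to 812 CPM in Lyve1+ cells without those 2. Values of Lyve1+ cells that involve old tumour are therefore also given below without them, a choice made after seeing the data. Lyve1+ cells of old sham held 8274 CPM of oligodendrocyte markers, against 261 in old tumour, 265 in young tumour and 267 in young sham. No cells of old sham were left out, and the part of these markers in the ratios was not tested.

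Tumour libraries were then compared with sham at the same age in cells with 3 or more marker genes, counting genes past 2-fold of 2561 with a mean of at least 20 CPM and 100 UMIs. In the old, 3.12% were higher and 5.35% lower in tumour. In the young, 4.49% were higher and 2.97% lower. These shares are the background for the list counts in these cells that follow. For list counts over all members, of 5655 genes, 3.87% were higher and 5.31% lower in the old. In the young, 5.36% were higher and 9.28% lower. Among 6 class II presentation genes, 3 were higher in tumour in the old (median log2 ratio 0.83) and 4 in the young (1.12), with none lower. Over all members 0 of 7 were higher in the old (median 0.13) and 5 of 7 in the young (2.09), with none lower. Cd74 stood at 3823 CPM in old tumour, 1349 in old sham, 15442 in young tumour and 4044 in young sham. It was the highest in young tumour and the lowest in old sham. Astrocytes without UMIs of the marker or microglia genes held 29.9, 27.9, 269 and 56.8 CPM in the same libraries. The ratio of Cd74 in tumour to sham was 2.83 (2.55 to 3.16) in the old and 3.82 (3.57 to 4.08) in the young. H2-DMa stood at 279.7 CPM in old tumour, 105 in old sham, 557 in young tumour and 241 in young sham, with ratios of 2.65 (1.81 to 4.0) and 2.31 (1.75 to 3.11). In Lyve1+ cells alone Cd74 had 4 UMIs in old tumour, 29 in old sham, 74 in young tumour and 10 in young sham. Its ratio there was 0.161 (0.0410 to 0.457) in the old, 0.274 (0.0699 to 0.779) without the 2 cells of many Ttr UMIs, and 7.35 (3.78 to 16.0) in the young. In class II-high cells alone it was 0.645 (0.574 to 0.726) in the old and 1.10 (1.03 to 1.18) in the young. Both classes were cut on class II UMIs, and cells with both or with neither are in none of these ratios. The class II-high ratios include all cells of that class. These cells held 54468 CPM of choroid plexus markers in old tumour and 1009 in old sham. In the young the sums were 515 CPM with tumour and 697 in sham. The part of these markers in the class II-high ratio of the old was not tested.

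Class I presentation was higher with tumour in the young and not in the old by count. In the young 8 of 14 genes were higher and none lower (median log2 ratio 1.24), and in the old 1 was higher and 1 lower (0.09). H2-K1, the heavy chain of the K molecule, stood at 894 CPM in old tumour, 777 in old sham, 2028 in young tumour and 629.6 in young sham. Young tumour lay well above the other 3 libraries, which were between 629.6 and 894 CPM. Its ratio of tumour to sham was 1.15 (0.983 to 1.35) in the old and 3.22 (2.72 to 3.84) in the young. B2m, the light chain of every class I molecule, stood at 1525 CPM in old tumour, 1892 in old sham, 3247 in young tumour and 1644 in young sham, with ratios of 0.806 (0.723 to 0.898) and 1.98 (1.77 to 2.20). Psmb8, an immunoproteasome subunit that cuts peptides for class I, had ratios of 1.05 (0.812 to 1.35) and 2.76 (2.13 to 3.63). Choroid plexus markers in these cells summed to 43276 CPM in old tumour and 4878 in old sham. Their part in the old ratios was not tested. Lyve1+ cells taken alone had H2-K1 at 1.13 (0.861 to 1.49) in the old, 1.80 (1.36 to 2.38) without the 2 cells of many Ttr UMIs, and 2.06 (1.54 to 2.76) in the young. Microglia of the same libraries showed 1.01 (0.981 to 1.04) in the old and 2.77 (2.68 to 2.86) in the young.

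The interferon gamma list had a higher median in the young than class I, class II or type I interferon genes. Of 10 genes of the interferon gamma list 8 were higher in young tumour than in young sham and none lower (median log2 ratio 2.83). In the old 3 were higher and 4 lower (median -0.47), whereas over all members 6 of 14 were higher and 2 lower (0.86). Of all genes over all members, 3.87% were higher and 5.31% lower there. Of 16 type I interferon genes 7 were higher in the young and 3 in the old, with none lower (medians 0.80 and 0.45). Cxcl9 had 2 UMIs in old tumour, 45 in old sham, 310 in young tumour and 0 in young sham. Its 45 UMIs in old sham lay in 1 cell, its 310 in young tumour in 25 cells, and the young tumour level was at least 31.8-fold higher than young sham. Ccl5, a chemokine for T cells, had 2 UMIs in old tumour, 15 in old sham, 614 in young tumour and 1 in young sham, found in 39 cells of young tumour and in 1 cell of each other library. Irf7, which drives type I interferon, stood at 68.0 CPM in old tumour, 41.6 in old sham, 125 in young tumour and 12.7 in young sham, with 3 UMIs in young sham. In Lyve1+ cells alone the median log2 ratio of the interferon gamma list in the young was 0.89.

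Genes of monocyte-derived macrophages were measured on few cells. Of 10 genes 7 were higher in tumour in the old and 5 in the young, with none lower (median log2 ratios 2.12 and 0.74). Over all members 0 of 19 were higher and 1 lower in the old (median -0.32), beside 3.87% and 5.31% of all genes. S100a6, a calcium-binding protein, stood at 126 CPM in old tumour, 12.8 in old sham, 127 in young tumour and 21.1 in young sham. It was found in 8 cells of old tumour, 2 of old sham, 27 of young tumour and 3 of young sham. Ccr2, the receptor by which monocytes follow Ccl2, was found in 3 cells of old tumour, 0 of old sham, 13 of young tumour and 5 of young sham. Monocyte markers among these cells summed to 241 CPM in old tumour, 19.2 in old sham, 268 in young tumour and 101 in young sham. Their part in these counts was not tested. Within Lyve1+ cells the median log2 ratio of the list in the old was 0.040, and 0.090 without the 2 cells of many Ttr UMIs.

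Several secreted factors and some immediate early genes were lower in tumour at both ages. Immediate early genes are induced within minutes by many stimuli, tissue dissociation included. Of 26 immediate early and heat shock genes, 7 were lower in the old and 9 in the young, and none was higher (medians -0.51 and -0.72). Ier3, a survival factor, stood at 433 CPM in old tumour, 933 in old sham, 119.5 in young tumour and 985 in young sham, with ratios of 0.464 (0.388 to 0.554) in the old and 0.121 (0.0943 to 0.155) in the young. Nr4a1, an orphan nuclear receptor, stood at 165 CPM in old tumour, 406 in old sham, 48.1 in young tumour and 203 in young sham, with ratios of 0.407 (0.305 to 0.540) and 0.237 (0.150 to 0.372). Both tumour libraries were under both sham libraries for each of these genes. Fos, a subunit of the AP-1 factor, differed less, with ratios of 0.839 (0.782 to 0.900) and 0.763 (0.703 to 0.829). These 3 genes were also lower in microglia of the tumour libraries. There Fos had ratios of 0.362 in the old and 0.432 in the young, Ier3 0.382 and 0.269, and Nr4a1 0.229 and 0.471. The part of cell isolation in these differences was not tested. Within Lyve1+ cells Ier3 was 0.192 (0.130 to 0.276) in the old, 0.262 (0.170 to 0.390) without the 2 cells of many Ttr UMIs, and 0.192 (0.132 to 0.275) in the young.

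The neutrophil chemokine Cxcl2 stood at 85.5 CPM in old tumour, 985 in old sham, 287 in young tumour and 1196 in young sham, with ratios of 0.0868 (0.0618 to 0.119) in the old and 0.240 (0.200 to 0.287) in the young. It lay in 8 cells of old tumour, 13 of old sham, 21 of young tumour and 14 of young sham. Bmp2, a growth factor of the bone morphogenetic family, stood at 109 CPM in old tumour, 469.9 in old sham, 74.1 in young tumour and 258 in young sham, with ratios of 0.232 (0.167 to 0.317) and 0.287 (0.197 to 0.419). Tnf had ratios of 0.382 (0.227 to 0.632) and 0.295 (0.161 to 0.539). Nfkbid, an atypical inhibitor of NF-kB, had ratios of 0.267 (0.183 to 0.385) and 0.266 (0.151 to 0.466). Ets2, Cd83 and the linker histone H1f0 completed the 10 genes lowest by the smaller of their ratios, with Ccl24, Ier3 and Nr4a1. Among chemokines as a list, 2 of 15 were higher and 6 lower in the old, and 4 higher and 4 lower in the young. Ccl2 stood at 1566 CPM in old tumour, 3043 in old sham, 289.7 in young tumour and 1555 in young sham, with ratios of 0.515 (0.468 to 0.566) and 0.186 (0.157 to 0.221). Ccl24 had ratios of 0.441 (0.378 to 0.513) and 0.312 (0.246 to 0.394), and in Lyve1+ cells alone 0.245 (0.184 to 0.322) and 0.553 (0.406 to 0.748). Without the 2 cells of many Ttr UMIs the Lyve1+ ratio in the old was 0.405 (0.303 to 0.533).

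**Figure D4:**
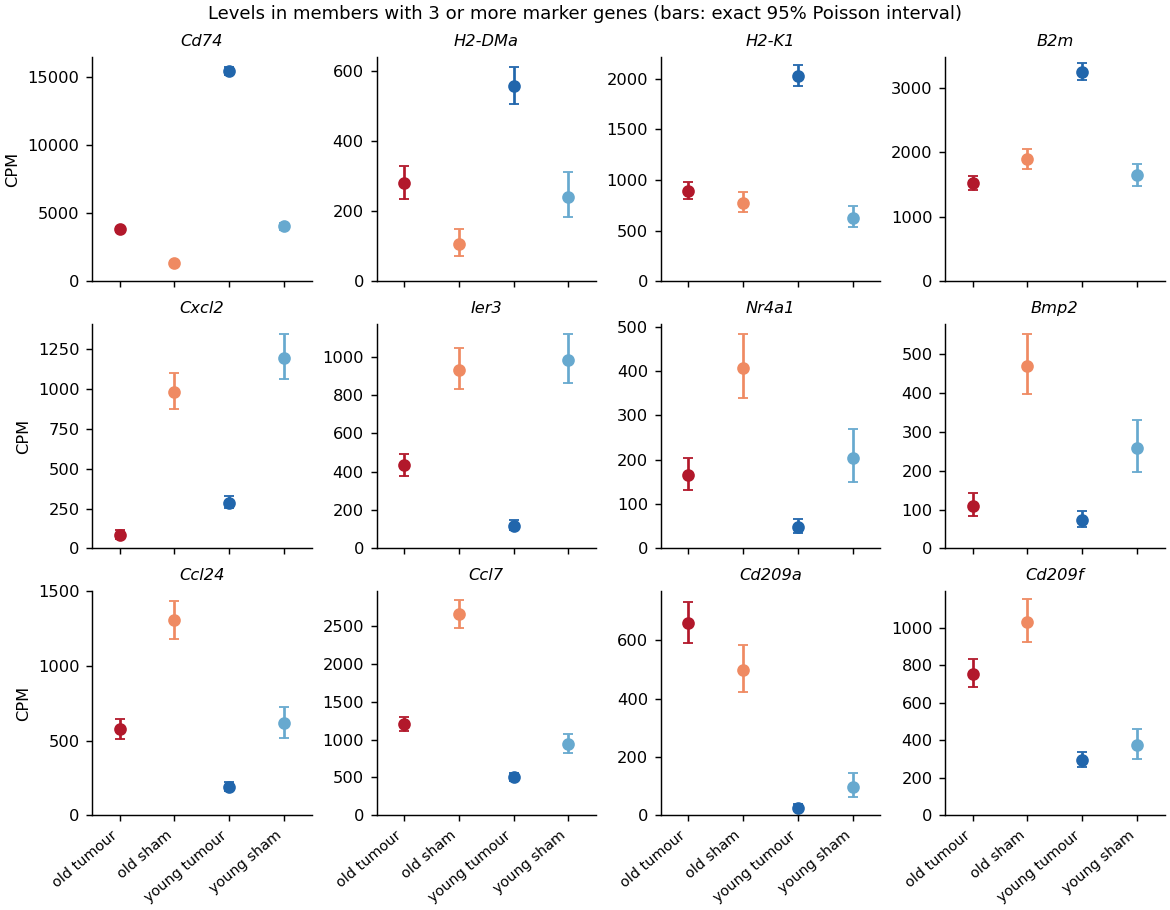
Level in CPM of 12 genes in cells with 3 or more marker genes, by library, with exact 95% Poisson intervals for counting error. The class I genes H2-K1 and B2m stand apart in young tumour. Cxcl2, Ier3, Nr4a1 and Bmp2 are lower in both tumour libraries than in both sham libraries, and Cd209a and Cd209f are higher in both old libraries than in both young ones.

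The 10 genes highest in tumour at both ages by the smaller of their ratios were Lgals3, Capg, Ms4a4c, Fcgr4, Cd74, Rgs1, Fxyd5, Tmem173, Il18bp and Cd72. Lgals3 (galectin-3), a lectin of activated macrophages, stood at 295 CPM in old tumour, 28.8 in old sham, 481 in young tumour and 50.7 in young sham, with ratios of 10.3 (5.27 to 22.9) in the old and 9.48 (5.36 to 18.5) in the young. Among Lyve1+ cells it had 17 UMIs in old tumour, 6 in old sham, 1 in young tumour and 6 in young sham, so its young ratio there was on the other side of 1, at 0.166 (0.00360 to 1.37). In old tumour it lay in 11 cells, of which 5 held 93.4% of its UMIs. Rgs1, a brake on chemokine receptor signalling, stood at 23.3 CPM in old tumour, 6.39 in old sham, 265 in young tumour and 101 in young sham, with ratios of 3.65 (0.812 to 33.5) and 2.61 (1.71 to 4.17). Capg, an actin capping protein, had 28 UMIs in 4 cells of old tumour, and without barcodes scored as doublets its log2 ratio in the old was -0.52. Fcgr4 had 5, 1, 143 and 5 UMIs (old tumour, old sham, young tumour and young sham), so its ratio in the old was 3.04 with an interval of 0.340 to 144. Tmem173 (STING), a sensor pathway protein for DNA in the cytosol, had ratios of 2.51 (1.14 to 6.28) in the old and 2.54 (1.21 to 6.12) in the young, and 0.994 (0.325 to 3.04) in Lyve1+ cells of the young. Fxyd5 in Lyve1+ cells was at 0.382 (0.107 to 1.14) in the young and 0.815 (0.263 to 2.37) in the old and 1.39 (0.449 to 4.04) without the 2 cells of many Ttr UMIs, on 5 to 13 UMIs in each library.

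Old libraries were compared with young ones under the same injection. In cells with 3 or more marker genes, 3.36% of genes were higher and 2.97% lower by 2-fold in old tumour than in young tumour, and 7.30% were higher and 2.93% lower in old sham than in young sham. The Cd209 lectins were among those higher with age. Cd209a (DC-SIGN) stood at 659 CPM in old tumour, 499 in old sham, 26.0 in young tumour and 97.2 in young sham. It was seen in 40 cells of old tumour, 39 of old sham, 8 of young tumour and 8 of young sham. Its ratio of old to young was 25.3 (16.2 to 42.0) with tumour and 5.13 (3.30 to 8.33) in sham. Cd209b stood at 185 CPM in old tumour, 221 in old sham, 14.3 in young tumour and 38 in young sham, with ratios of 12.9 (6.90 to 26.7) and 5.80 (2.88 to 13.2). Cd209f had ratios of 2.54 (2.15 to 3.00) and 2.75 (2.16 to 3.51), and Cd209g 1.90 (1.37 to 2.64) and 5.06 (2.98 to 9.17). The 4 genes lie near each other on chromosome 8 (GRCm38, GENCODE release M21), Cd209a at 3743397 to 3748984 and Cd209g at 4134098 to 4137707. They are close copies, and reads that fit several of them may have been split or lost in counting. In Lyve1+ cells alone Cd209a was 8.17 (4.94 to 14.4) with tumour (12 without the 2 cells of many Ttr UMIs) and 4.12 (2.54 to 7.00) in sham, and Cd209b 4.42 (2.04 to 10.9) and 4.23 (1.98 to 10.4).

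Ccl7, a chemokine for monocytes, and Ccl24 were higher with age in sham and with tumour, while of the 15 chemokines compared 4 were higher and 5 lower with tumour, and 6 higher and 4 lower in sham. Ccl7 stood at 1201 CPM in old tumour, 2649.8 in old sham, 505 in young tumour and 938 in young sham, with ratios of old to young of 2.38 (2.09 to 2.70) with tumour and 2.82 (2.43 to 3.29) in sham. Ccl24 stood at 575 CPM in old tumour, 1304 in old sham, 192 in young tumour and 617 in young sham, with ratios of 2.99 (2.45 to 3.67) and 2.11 (1.75 to 2.57). For both genes old sham was the highest library and young tumour the lowest. Among Lyve1+ cells the ratios in sham were 2.25 (1.93 to 2.64) for Ccl7 and 1.80 (1.46 to 2.24) for Ccl24, and those with tumour were 1.20 (0.924 to 1.56) and 0.80 (0.560 to 1.14). Without the 2 cells of many Ttr UMIs, the tumour ratios were 1.38 (1.03 to 1.84) for Ccl7 and 1.32 (0.921 to 1.89) for Ccl24. Ccl8 stood at 903 CPM in old tumour, 1179 in old sham, 1554 in young tumour and 169 in young sham, lowest in young sham, where 40 UMIs lay in 7 cells. The factor Klf4 stood at 183 CPM in old tumour, 224 in old sham, 52.0 in young tumour and 54.9 in young sham, with ratios of 3.51 (2.40 to 5.22) and 4.07 (2.23 to 8.03).

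In cells with 3 or more marker genes some class II genes were lower with age. Of 6 genes 3 were lower in old tumour than in young tumour and 3 in old sham than in young sham, and none was higher (medians -1.01 and -0.96). Over all members 6 of 7 were lower with tumour (median -1.30), whereas in sham 0 of 7 were lower and the median was 0.46. Of all genes over all members, 4.88% were lower with tumour and 5.39% in sham. Cd74 had ratios of 0.248 (0.236 to 0.260) and 0.334 (0.297 to 0.374). In class II-high cells alone it was 0.445 (0.422 to 0.469) with tumour and 0.762 (0.672 to 0.863) in sham, and among Lyve1+ cells 0.0466 (0.0124 to 0.124) and 2.13 (1.01 to 4.91). Without the 2 cells of many Ttr UMIs the Lyve1+ ratio with tumour was 0.0794 (0.0211 to 0.212). The class II-high ratios include all cells of that class. Those of old tumour held 54468 CPM of choroid plexus markers against 515 in young tumour, and the part of these markers was not tested. Class I genes were lower for 11 of 14 in old tumour (median -1.17), whereas in sham 2 were higher and 1 lower (0.18). Mgl2 (CD301b), a galactose lectin of class II-high macrophages, stood at 79.6 CPM in old tumour, 67.1 in old sham, 227 in young tumour and 359 in young sham, with ratios of 0.350 (0.243 to 0.495) and 0.187 (0.110 to 0.304). Rgs1 had ratios of 0.0880 (0.0447 to 0.157) and 0.0630 (0.00722 to 0.254), on 2 UMIs in old sham. Fcgr4, Klra2, Il18bp, Cd72, C3, Apoc2 and Capg were the others of the 10 lowest with age, each with 1 to 28 UMIs in the old libraries.

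Enpp2 (autotaxin), which makes lysophosphatidic acid, headed the genes higher with age, at 2335 CPM in old tumour, 617 in old sham, 70.2 in young tumour and 88.7 in young sham. It is also a marker of the choroid plexus epithelium, and 5 cells held 98.9% of its UMIs in old tumour. Without barcodes scored as doublets its log2 ratio of old to young with tumour was -0.86. Choroid plexus markers in cells with 3 or more marker genes summed to 43276 CPM in old tumour, 4878 in old sham, 708 in young tumour and 709.9 in young sham. Oligodendrocyte markers summed to 1795 CPM in old tumour, 6946 in old sham, 1109.5 in young tumour and 1707 in young sham. The first was higher in both old libraries and the second in old sham, and their part in other differences with age was not tested.

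By the gap between the ages in the tumour to sham ratio, a difference that was not tested, Fcna, Ccr2, Ccl9, Cxcl13 and Cd209a were the 5 highest in the old, and Ccl5, Cxcl9, Iigp1, Cxcl10 and H2-Q7 the 5 highest in the young. Fcna (ficolin A), which binds sugars on microbes, stood at 161 CPM in old tumour, 157 in old sham, 36.4 in young tumour and 385 in young sham. Young tumour held the lowest level and young sham the highest. H2-Q7, a nonclassical class I gene of a family of close copies, had 20 UMIs in old tumour, 8 in old sham, 237 in young tumour and 3 in young sham. Iigp1, a GTPase that attacks parasite vacuoles, had 44 UMIs in old tumour, 30 in old sham, 187 in young tumour and 1 in young sham. Both of these were found in more cells of young tumour (61 and 49) than of any other library. Cxcl13, a B cell chemokine, lay in 5 cells of old tumour, 0 of old sham, 3 of young tumour and 1 of young sham.

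Over all members, few-marker cells included, the share of genes past 2-fold, both directions summed, was larger in all 4 comparisons than among cells with 3 or more marker genes. Of 5655 genes, 3.87% were higher and 5.31% lower in old tumour than in old sham, and 5.36% higher and 9.28% lower in young tumour than in young sham. In old tumour 8.51% were higher and 4.88% lower than in young tumour, and in old sham 7.32% were higher and 5.39% lower than in young sham. In the young, 23 of 29 type I interferon genes were higher with tumour, 12 of 16 class I genes and 14 of 14 interferon gamma genes, with none lower in the 3 lists. Genes of monocyte-derived macrophages went the other way there, with 3 of 19 higher and 14 lower (median log2 ratio -2.41, against 0.74 in cells with 3 or more marker genes). Cell cycle genes had a median of 1.40 for old tumour over old sham and -1.35 for young tumour over young sham. Mki67, a marker of dividing cells, stood in few-marker cells at 188 CPM in old tumour, 91.0 in old sham, 71.8 in young tumour and 309 in young sham. Among cells with 3 or more marker genes, 3 in old tumour, 1 in old sham, 7 in young tumour and 1 in young sham held it.

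Some other lists had few or no genes past 2-fold in cells with 3 or more marker genes. Of all 2561 genes, 2.93 to 7.30% were past it in each direction of a comparison. Low counts in short lists are near that share and do not set these lists apart. Macrophage transcription factors and the CSF1 receptor axis had no gene of 15 past 2-fold in any of the 4 comparisons. Csf1r, the receptor these cells need to survive, stood at 1008 CPM in old tumour, 1365 in old sham, 983 in young tumour and 1428 in young sham. Maf, a factor of resident macrophages, stood at 995 CPM in old tumour, 1179 in old sham, 854 in young tumour and 904 in young sham. Receptors for dying cells had 1 gene of 9 past 2-fold in 1 comparison (Pros1, lower in old sham than in young sham). Lysosomal proteases had Ctss alone past it, of 18. Scavenger and lectin receptors were not past 2-fold for any of 20 genes in the old, whereas 4 were lower in the young (Cd36, Cd209a, Cd209b and Fcna). With age 4 of 20 were higher and 0 lower with tumour, and 4 higher and 1 lower in sham. Stab1 had ratios of tumour to sham of 0.629 (0.544 to 0.728) in the old and 0.645 (0.554 to 0.753) in the young, both under 1 and neither past 2-fold. Among lipid genes, the fatty acid binding protein Fabp5 had ratios of 0.290 (0.196 to 0.424) and 2.28 (1.65 to 3.23), in opposite directions at the 2 ages.

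**Figure D5:**
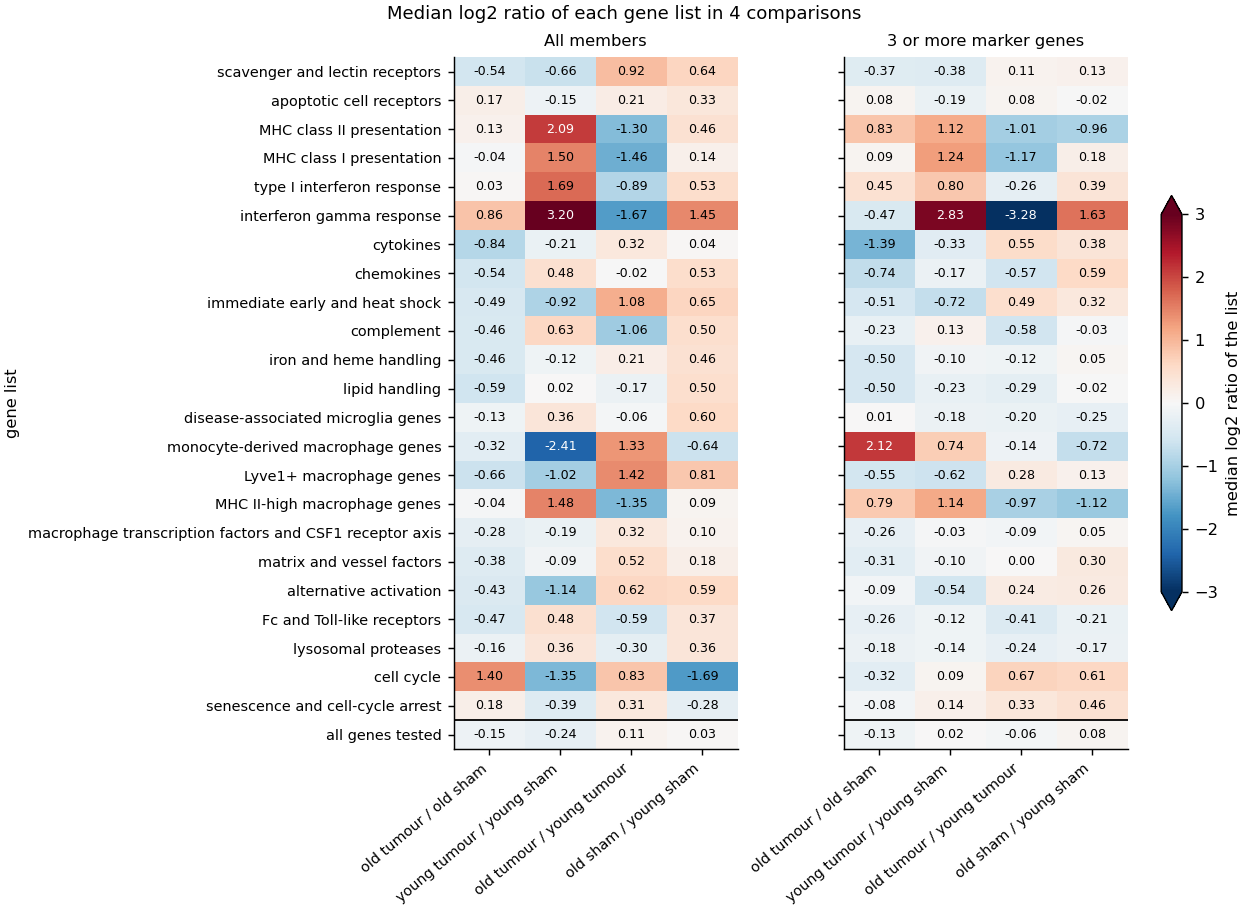
Median log2 ratio of 23 gene lists in 4 comparisons, for all members and for cells with 3 or more marker genes, with the median of all genes tested in the last line. Red is higher in the group named before the stroke. Interferon, class I and class II lists are high for young tumour over young sham in both panels, whereas the lists of monocyte-derived macrophages and of the cell cycle differ between the panels. Each library enters 2 of the 4 comparisons, so these are not independent.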

How the data were processed

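Single-cell RNA was measured in 4 libraries of the uninjected hemisphere, dissociated with the Adult Brain Dissociation kit and prepared with the 10x 3' v3 kit, per the labels' protocols. The deposited values are raw UMI counts per gene and barcode. The submitters' processing notes name Cell Ranger 3.0.2, Seurat 2.3.4 and mm10, whereas the file headers name Cell Ranger 6.1.0. The annotation release is not given in the sources used here. Groups follow the library descriptions.

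Barcodes with at least 500 UMIs, 200 genes and at most 20% mitochondrial UMIs were kept, 44503 in all. Doublets were kept in the values reported, and Scrublet (scanpy 1.11.5) scores served an alternative that removed the highest at 0.8% per 1000 barcodes. UMIs were summed over the cells of a class in each library and scaled to CPM by the UMI total of the class. Genes with a mean of at least 20 CPM and 100 UMIs in all were compared, the gate genes and mitochondrial genes left out. No test within an age or an injection could be made, each group being 1 library, and an additive fit of age and injection over the 4 libraries was not run. Ratios carry exact conditional Poisson intervals and shares exact Clopper-Pearson intervals (95%, scipy 1.17.1), for counting error only. A count of 0 was set to a floor of 3 counts, and no ratio was given where both counts were at or under it. Depth per library and class is given with the results. The ratio code was tested on simulated data.

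Named genes had at least 2 times the astrocyte level where they were higher, in astrocytes without UMIs of the marker or microglia genes. They were the 10 highest and 10 lowest by the smaller log2 ratio of a pair of contrasts with 1 direction, the 5 highest and lowest by the gap between the ages, and the 10 highest and lowest by the smallest ratio over libraries within a library. Genes of the lists are also named. Results for some genes are not reported here. The members and the lists were chosen with earlier results of these data known. Alternatives changed the doublets, gate, depth, scaling, gene filter and fold.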

Additional observations from a re-analysis of the deposited data

Results flagged for a closer look

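In the results that follow the tumour library lay past 2-fold on opposite sides of its sham at the 2 ages, among the lists and the genes named or listed, and the difference between the ages was not tested. Over all members, few-marker cells included, the median log2 ratio of cell cycle genes was 1.40 in the old and -1.35 in the young. Among cells with 3 or more marker genes only 3 genes of this list were compared. Their medians were -0.32 in the old and 0.085 in the young, and none was past 2-fold. In cells with 3 or more marker genes Ccl9, a chemokine for CCR1, had a log2 ratio of 1.42 in the old and -1.06 in the young. Ccl5 had -3.63 in the old and 7.56 in the young, on 15 UMIs of 1 cell in old sham and 614 UMIs of 39 cells in young tumour. Cxcl9 had -5.21 in the old and 4.99 in the young, on 45 UMIs of 1 cell in old sham and against 0 UMIs in young sham, which was set to the floor of 3 counts. Fabp5 had -1.79 in the old and 1.19 in the young. Gbp2, a GTPase induced by interferons, had -1.98 in the old and 4.79 in the young, and H2-Q4, a class I gene, -1.27 in the old and 2.17 in the young.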

How the results depend on the processing

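No paired analysis was possible because the groups compared share fewer than 2 replicate numbers, each being 1 library. Ratios of shares that involve young tumour moved most with the number of marker genes. With 3 or more, the ratio of shares was 2.27 for young tumour over young sham, against 4.07 for all members, and 0.622 for old over young tumour, against 0.315. Old over young tumour was 0.390 with barcodes thinned to 1500 UMIs and 0.387 among the 3 myeloid gates. Old over young sham moved more among those gates, to 1.62 against 1.19, than with 3 or more marker genes (1.31). With 3 or more marker genes the class II-high ratio of old over young sham was 0.500, against 0.990. The Lyve1+ ratio was then 0.459 for young tumour over young sham, against 0.256, and 1.21 for old over young tumour, against 2.40.

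Genes higher and lower by 2-fold over all members numbered 219 and 300 for old tumour over old sham, 303 and 525 for young tumour over young sham, 481 and 276 for old over young tumour and 414 and 305 for old over young sham. With 3 or more marker genes they numbered 80 and 137 for old tumour over old sham, 115 and 76 for young tumour over young sham, 86 and 76 for old over young tumour and 187 and 75 for old over young sham. With cells thinned to 1500 UMIs they numbered 40 and 48 for old tumour over old sham, 93 and 96 for young tumour over young sham, 94 and 102 for old over young tumour and 68 and 56 for old over young sham. In Lyve1+ cells alone they numbered 24 and 89 for old tumour over old sham, 16 and 27 for young tumour over young sham, 31 and 84 for old over young tumour and 46 and 20 for old over young sham, and 17 and 60 for old tumour over old sham, 13 and 20 for young tumour over young sham, 12 and 19 for old over young tumour and 37 and 20 for old over young sham without the 2 Lyve1+ cells of old tumour that held 100 or more Ttr UMIs and 41.3% of that class's UMIs, an alternative also chosen after seeing the data. At 1.5-fold they numbered 541 and 1136 for old tumour over old sham, 561 and 1460 for young tumour over young sham, 1119 and 624 for old over young tumour and 1048 and 867 for old over young sham. With a mean of at least 50 CPM they numbered 76 and 112 for old tumour over old sham, 160 and 233 for young tumour over young sham, 225 and 149 for old over young tumour and 166 and 116 for old over young sham, and with at least 20 UMIs alone 1099 and 886 for old tumour over old sham, 770 and 1697 for young tumour over young sham, 1815 and 647 for old over young tumour and 1185 and 1006 for old over young sham. Centring on the median gene gave 181 lower genes in the old and 316 in the young. Without members of 100 or more Ttr UMIs, an alternative chosen after seeing the data, 192 were lower in the old. Without members holding 10 or more UMIs of another cell type, 297 were higher in old than in young tumour.

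Median log2 ratios of lists over all members changed chiefly with the kind of cell. In Lyve1+ cells alone, class II was 0.54 for young tumour over young sham and -0.52 for old over young tumour, type I interferon 0.69 in the young, and chemokines -1.90 in the old. Immediate early genes were then -0.97 for old over young tumour, against 1.08. Genes of monocyte-derived macrophages were -0.13 in the young and -0.16 for old over young tumour. The Lyve1+ list was 0.028 in the young and -0.36 for old over young tumour, the class II-high list -0.087 (also on the genes tested with 3 or more marker genes) and alternative activation 0.0043 in the young, and the cell cycle list -0.46 in the old and 0.10 in the young. Without those 2 cells, over the genes tested in all members, old over young tumour was 0.12 for class II, -0.63 for immediate early genes, -0.049 for genes of monocyte-derived macrophages and 0.17 for the class II-high list, and chemokines were -1.28 in the old. List ratios without old tumour are the same in both. With 3 or more marker genes, over the genes tested in all members, type I interferon was 0.88 in the young, immediate early genes 0.49 for old over young tumour, and the cell cycle list 0.38 in the young. Genes of monocyte-derived macrophages were 2.28 in the old, 0.85 in the young and 0.15 for old over young tumour. That last value was 0.85 in thinned cells and 0.95 by mean CPM per cell. Immediate early genes in the young were -1.10 without doublets, -1.18 in thinned cells and -1.04 by mean CPM per cell, and 0.97 for old over young tumour after centring. Class II for old over young tumour was -0.94 without members holding other cell types.

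In cells with 3 or more marker genes, most genes that turned did so in Lyve1+ cells alone. There the log2 ratio of tumour to sham was -2.64 for Cd74 and -0.29 for Fxyd5 in the old, and in the young -2.59 for Lgals3, -1.39 for Fxyd5, -0.42 for Klra2, -0.00915 for Tmem173 and Il18bp alike, and 0.41 for H1f0. The ratio of old to young with tumour was -0.21 for Nfkbid, -0.48 for Nr4a1, -0.32 for Ccl24, -0.29 for Ier3 and 2.49 for Apoc2, and in sham 1.09 for Cd74. Without the 2 cells, Cd74 was -1.87 and Enpp2 -2.95 for old tumour over old sham, and Nr4a1 -2.03 and Apoc2 3.25 for old over young tumour, whereas Fxyd5 in the old, and Nfkbid, Ccl24 and Ier3 for old over young tumour, no longer turned. Without doublets Capg was -0.52 and Enpp2 -1.82 for old tumour over old sham, and Enpp2 -0.86 for old over young tumour. Enpp2 for old tumour over old sham was -0.20 at 1000 UMIs and 10% mitochondrial, and -1.40 without members of 100 or more Ttr UMIs. The cause of these shifts was not tested. Small classes, down to 7 class II-high cells in old sham, limit the ratios within each kind.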
